A study of Mus musculus with 18 samples.

Results

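The genes described here are 10 heat shock chaperone genes, Hspa1a, Hspa1b, Hsph1, Dnajb1, Hspb1, Hspa8, Hsp90aa1, Hsp90ab1, Hspd1 and Hspe1, taken by name from the 30452 genes of the deposited expression table. Their transcripts are commonly read as a sign of heat or of damaged proteins, and the comparison asks whether they differed with ultrasound on each of 3 culture membranes. RNA was sequenced from MC3T3-E1, an established mouse pre-osteoblast line, after 5 days on 15 mm discs of PLLA (poly-L-lactic acid), PLLA/ZnO (the same polymer with zinc oxide) or PLLA/ZnO@Col (with zinc oxide and a component that the labels call Col). All groups were seeded with 20000 cells per well, all discs had been sterilised by irradiation, and each membrane was studied without ultrasound (-US) and with ultrasound for 10 min every day (+US), with 3 libraries in each of the 6 groups. The labels give neither the intensity of the ultrasound, nor a temperature, nor the interval between the last sonication and lysis, and nothing in them tells whether replicates of a group were grown apart. The p-values therefore cover the spread between these libraries, which may be technical.

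Heat shock proteins bind unfolded proteins and help them fold, and many are made in larger amounts when cells meet heat, oxidants, heavy metals or other causes of protein misfolding. The inducible genes are switched on by heat shock factor 1, which binds inverted repeats of the unit GAA in their promoters, and the transcripts of the most inducible ones rise quickly and decline again within hours. Hspa1a and Hspa1b encode the inducible HSP70, Dnajb1 its J-domain partner, Hsph1 the HSP110 exchange factor and Hspb1 the small heat shock protein HSP27. Hspa8 and Hsp90ab1 encode the constitutive HSP70 and HSP90, Hsp90aa1 the more inducible HSP90, and Hspd1 and Hspe1 the mitochondrial chaperonin HSP60 with its co-chaperonin HSP10. In the GENCODE M21 annotation (GRCm38) Hspa1b (chr17:34956436-34959238) and Hspa1a (chr17:34969190-34972156) are neighbours on the minus strand, and Hspd1 (chr1:55077835-55088243, minus) and Hspe1 (chr1:55088132-55091307, plus) overlap head to head. Hsp90ab1 (chr17:45567775-45573271, minus) lies farther along the chromosome of Hspa1b and Hspa1a. Hspb1 (chr5:135887919-135889563, plus) and Hsph1 (chr5:149614287-149636376, minus) share a chromosome, and Hspa8 (chr9:40800984-40810087, plus) and Hsp90aa1 (chr12:110690605-110702728, minus) lie elsewhere.

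The promoter sequence is shown for the members that carry the results below, because the repeat of GAA stands in most of the windows found. The genes were taken by name, not by the repeat. As heat shock factor 1 binds the repeat in inducible heat shock genes, the counts below are not independent of that choice. RefSeq windows (GRCm38.p6) from 250 bases before to 50 bases after the start site matched 7 of the 10 genes, the exceptions being Hspa8, Hsp90aa1 and Hsp90ab1. The capitals mark the palindromic pair GAANNTTC (or TTCNNGAA, the pair in the other orientation, each its own reverse complement), and the first 3 stretches cover bases -200 to -51 from the start at chr17:34972207-34972356 (minus strand), chr17:34959289-34959438 (minus strand) and chr5:135887719-135887868 (plus strand). The fourth, at chr1:55088053-55088082 (plus strand), lies in the shared start region of Hspe1 and Hspd1, which are read in opposite directions, and within an annotated exon of Hspd1.
Hspa1a: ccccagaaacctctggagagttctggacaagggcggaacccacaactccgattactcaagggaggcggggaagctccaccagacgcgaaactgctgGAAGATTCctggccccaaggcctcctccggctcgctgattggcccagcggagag
Hspa1b: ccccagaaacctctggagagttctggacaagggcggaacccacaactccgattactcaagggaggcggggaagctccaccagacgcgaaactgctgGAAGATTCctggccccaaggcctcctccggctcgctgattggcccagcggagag
Hspb1: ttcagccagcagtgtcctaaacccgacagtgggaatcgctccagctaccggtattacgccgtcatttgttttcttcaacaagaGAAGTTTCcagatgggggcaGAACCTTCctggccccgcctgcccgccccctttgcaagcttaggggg
Hspe1: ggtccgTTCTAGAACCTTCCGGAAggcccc
The stretches of Hspa1a and Hspa1b were identical, and over the whole 300-base windows the genes differed at 4 bases. At least 1 of the pairs stood in the windows of 6 of the 7 genes, all but Dnajb1, against 17.0% of the 27025 genes that have a window. A run of at least 3 units (the pairs GAANNTTC and TTCNNGAA sharing 3 bases, in either order) stood in 3 of the 7, against 0.662% of those genes. The 3 were Hspd1, Hspe1 and Hsph1. The runs of Hspd1 and Hspe1 lie on the same bases of their shared start region. That of Hsph1 lies after the start, at bases 36 to 48 or 15 to 27 by the start site used. With the near identity of the Hspa1a and Hspa1b windows, the 7 windows are thus not independent. A match is a description of the letters, not a measured binding site.

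The libraries held 48307580 to 78039543 counts over genes, so counting error was small for all members except Hspb1, which had 34 to 316 counts per library. Osteoblast matrix genes were abundant (Col1a1 at 500 to 1165 FPKM, which takes transcript length and sequencing depth into account, and Spp1 at 637 to 3609), Runx2 was at 6.22 to 9.54, and Sp7, Alpl, Bglap and Ibsp stayed under 1 FPKM in every library. Of the endothelial markers, 4 of 4 stayed under 1 FPKM in every library. So did 4 of 5 epithelial and kidney markers and 3 of 8 macrophage and osteoclast markers (Acp5, Adgre1 and Ptprc). The others of the 8 did not. Lyz2 was at 4.996 to 26.8 FPKM over all libraries, Ctsk at 4.89 to 16.7 and Cd68 at 0.381 to 5.97. Csf1r reached 1.68 FPKM at most, and the highest value of Tyrobp was also above 1 FPKM. The summed level of the macrophage and osteoclast list was 15.0 to 35.2 FPKM over the -US libraries on PLLA and PLLA/ZnO. It was 14.2 to 33.9 over their +US libraries. On PLLA/ZnO@Col it was 23.2 to 40.7 without ultrasound and 13.4 to 42.0 with it. Kap, a kidney gene, was at 62.4 FPKM in replicate 3 of PLLA +US and at 0 in the other 17 libraries. Libraries fell into 3 sets by their Y-linked reads, which the labels do not explain. In 3 libraries (PLLA/ZnO@Col -US replicates 1 and 3, PLLA/ZnO@Col +US replicate 1) the Y-linked share was 1.64 to 3.05% of that of the median library, and Thy1, a mesenchymal surface gene, was at 0.0709 to 0.128 FPKM, against 2.55 to 5.79 in the other 15. In 4 more (replicate 3 of PLLA +US, replicate 3 of PLLA/ZnO +US, replicates 2 and 3 of PLLA/ZnO@Col +US) it was 18.7 to 45.9%, and it was 79.8 to 150% in the remaining 11. All 4 of the intermediate libraries had been treated with ultrasound. On the list of 5 mesenchymal surface markers, Pdgfra was at 7.18 to 16.0 FPKM over all libraries and Pdgfrb at 19.3 to 38.4. Eng and Nt5e, also on that list, stayed under 1 FPKM in every library. Saa3, an acute-phase gene, was at 2.95 to 10.7 FPKM in the 3 lowest libraries and at 33.3 or more in the others, and the mitochondrial share of counts was 1.83 to 2.27% in those 3, 1.57 to 1.87% in the 4 and 2.31 to 4.54% in the 11. The dependence of counts on base composition was measured per library as a tilt, the median log2 deviation of the 1193 genes lowest in GC (at most 41.8% GC) minus that of the 1193 highest (at least 58.1%). The tilt was -1.73 to -0.906 in the 4 intermediate libraries, the lowest values of the 18, -0.615 to -0.00438 in the 3 libraries lowest in Y-linked reads and 0.0798 to 1.02 in the other 11. Below, the members are set beside the Y-linked sets and the tilt, and fits with an offset for GC content are given. Whether the Y-linked share, the mitochondrial share or the tilt caused any difference with ultrasound was not tested. The main results that rest on these libraries are given with and without them. Leaving out the 3 lowest leaves PLLA/ZnO@Col -US with replicate 2 alone (tilt 1.02, the highest of the 18). The PLLA/ZnO@Col +US libraries it keeps, replicates 2 and 3, are both intermediate. Ultrasound, Y-linked set and tilt thus cannot be told apart on that membrane in that fit. Leaving out the 4 intermediate ones leaves PLLA/ZnO@Col +US with replicate 1 alone. In both fits that lone library was assumed to vary like the other groups.

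The chaperones spanned a wide range of levels. By median FPKM over the 18 libraries the order was Hsp90ab1 (1091), Hspa8 (567), Hspd1 (175), Hsp90aa1 (101), Hspe1 (71.4), Dnajb1 (18.7), Hsph1 (17.7), Hspa1b (12.4), Hspa1a (2.66) and Hspb1 (1.69). The constitutive cytosolic HSP90 and HSP70 were thus the most abundant per length, and the inducible HSP70 pair and the small heat shock protein the least. The ranges of Hspd1 (98.3 to 257 FPKM) and Hsp90aa1 (36.4 to 182) overlapped, as did those of Dnajb1 (14.8 to 25.0) and Hsph1 (12.6 to 22.4). All 10 passed the filter of 1 FPKM in at least 3 libraries and were tested. In such bulk samples, fewer cells of a type and less RNA per cell cannot be told apart.

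**Figure D1:**
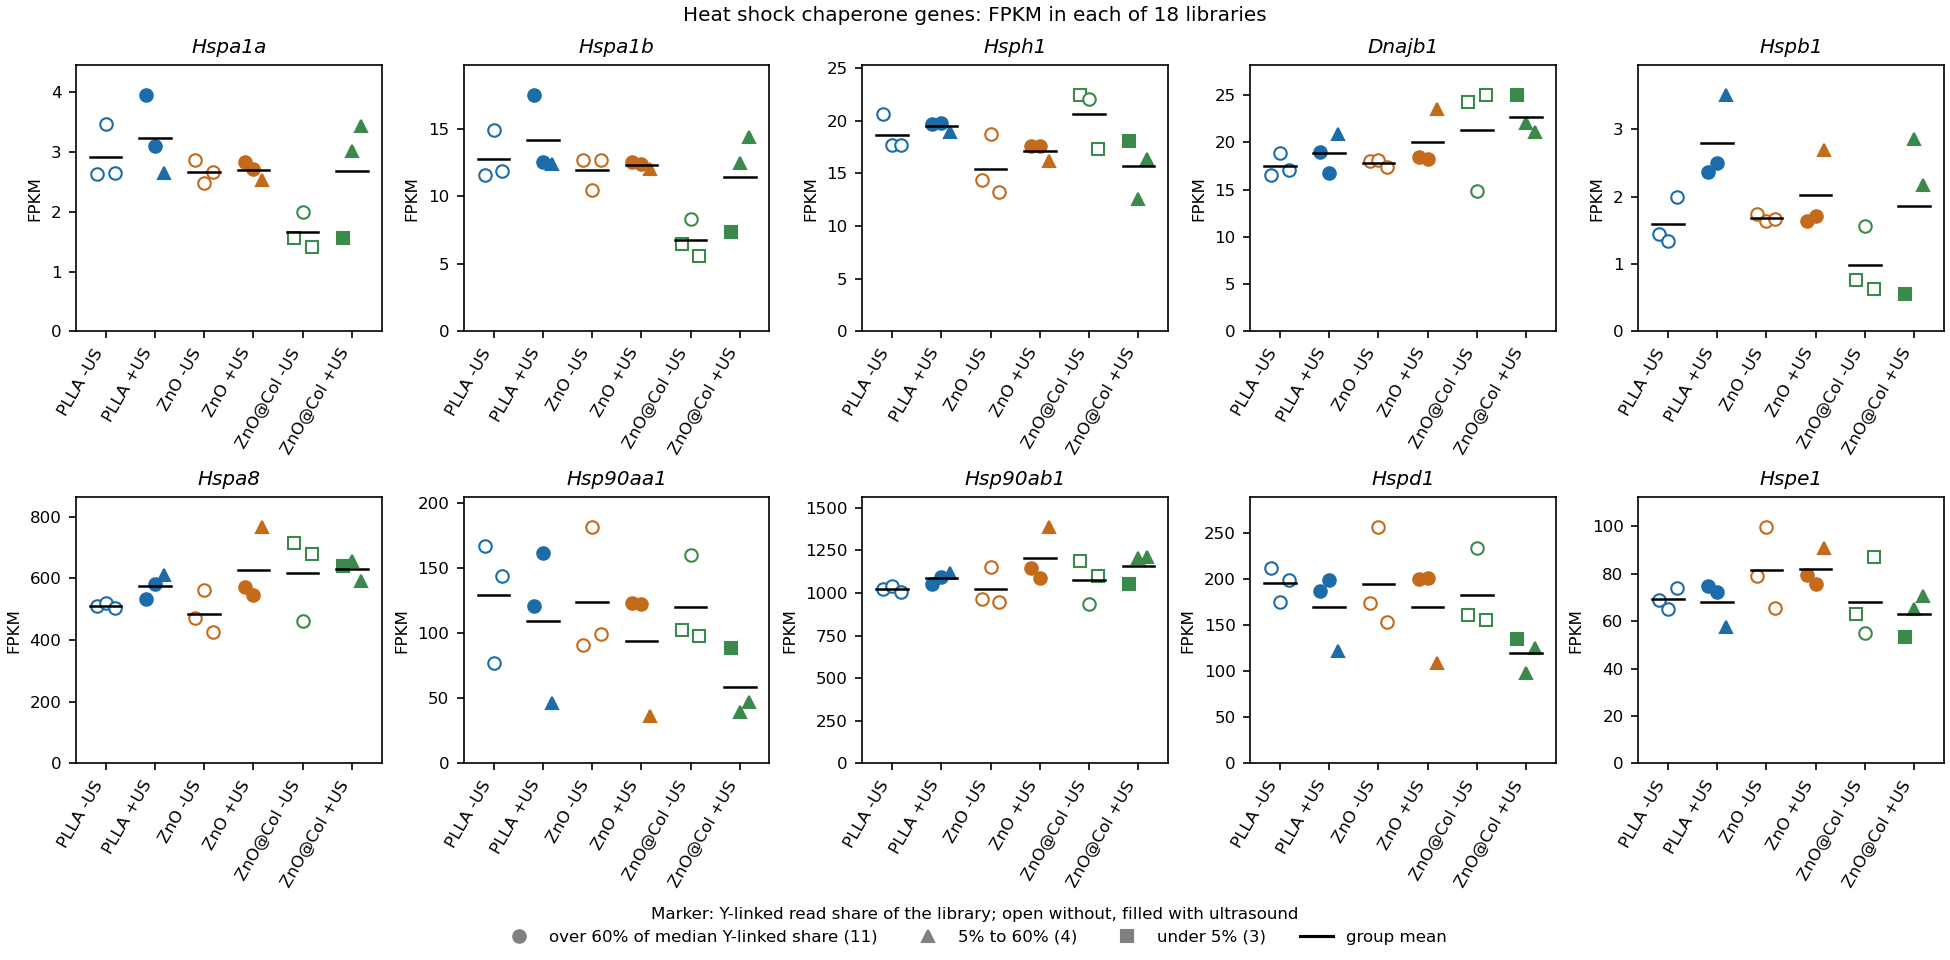
Level of each chaperone gene (vertical axis, FPKM, from 0) in the 3 libraries of each group, without ultrasound (open) and with it (filled), with bars at the group means. The marker shape gives the Y-linked read share of the library. Hspa1a, Hspa1b and Hspb1 are lowest in the squares, and Hsp90aa1 and Hspd1 are lowest in the triangles.

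On the PLLA membrane, none of the 10 chaperones was called with ultrasound at an adjusted p under 0.05 by edgeR's quasi-likelihood test, as for all 11936 genes tested (0%). At an unadjusted p under 0.05 there were likewise 0 members, against 0.436% of all genes, and DESeq2 called 0 (0% of genes) and limma voom with library weights 0 (0.00838%). The estimate was above 0 for 7 of 10 members, against 50.5% of genes. The members' median log2 fold change was 0.06, against 0.00 over all genes. The upper 95% bound was under 2-fold for 9 of the 10 members and under 1.5-fold for 6, so a rise of 2-fold lay within the interval for Hspb1 alone.

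Of the inducible genes on PLLA, Hspb1 had the largest estimate. It was at 1.44, 1.34 and 1.99 FPKM without ultrasound and at 2.37, 2.51 and 3.51 with it. The groups did not overlap, and the highest value came from the library with a Y-linked share of 37.1%. The log2 fold change was 0.77 (SE 0.44, edgeR adjusted p = 0.978). Without the 4 intermediate libraries it was 0.62 (SE 0.34). Hspa1b was at 11.6, 14.9 and 11.9 FPKM without ultrasound and at 17.5, 12.6 and 12.4 with it. These groups overlapped, replicate 1 with ultrasound being the highest of all 18 libraries, and the log2 fold change was 0.12 (SE 0.22). Hspa1a had a log2 fold change of 0.12 (SE 0.25), Dnajb1 of 0.07 (SE 0.18) and Hsph1 of 0.03 (SE 0.16). A 2-fold rise lay outside the 95% interval for each of these 4 genes.

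Among the constitutive chaperones on PLLA, Hspa8 was at 510, 520 and 505 FPKM without ultrasound and at 534, 580 and 611 with it. Every library with ultrasound was above every library without, by a log2 fold change of 0.14 (SE 0.18, edgeR adjusted p = 0.978). Hsp90ab1 was at 1022, 1042 and 1003 FPKM and, with ultrasound, at 1050, 1095 and 1117. These groups did not overlap in FPKM either, but did so in TMM-scaled CPM, counts scaled to library size. In all, 3 of the 10 members were higher without overlap in FPKM (Hspb1, Hspa8 and Hsp90ab1) against 4.99% of genes, 2 of 10 in TMM-scaled values (6.23% of genes), and 0 were lower without overlap, against 5.8% of genes. Hsp90aa1, Hspd1 and Hspe1 had log2 fold changes of -0.25 (SE 0.52), -0.23 (SE 0.27) and -0.05 (SE 0.19), and without the 4 intermediate libraries 0.13 (SE 0.36), -0.01 (SE 0.22) and 0.09 (SE 0.21).

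On the PLLA/ZnO membrane, edgeR again called 0 of the 10 members (0% of genes), and 0 members reached an unadjusted p under 0.05, against 3.24% of genes. DESeq2 called 0 members (0.0419% of genes). Limma voom with library weights called 2 members as higher, Hspa8 and Hsp90ab1, against 4.76% of genes. The estimate was above 0 for 8 of 10 members, against 46.3% of genes, and the upper 95% bound was under 2-fold for 9 of 10. The members' median log2 fold change was 0.10, against -0.03 over all genes.

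Hspa8 had the smallest edgeR p on this membrane. It was at 471, 562 and 425 FPKM without ultrasound and at 572, 545 and 767 with it. The highest value belonged to replicate 3, the library with the lowest tilt of all 18, and replicate 2 with ultrasound lay below the highest library without. The log2 fold change was 0.37 (SE 0.18, edgeR adjusted p = 0.937), and 0.21 (SE 0.21) without the 4 intermediate libraries. Hsp90ab1 was at 963, 1152 and 945 FPKM without ultrasound and at 1144, 1086 and 1386 with it. The groups overlapped, replicate 3 with ultrasound again being the highest, and the log2 fold change was 0.24 (SE 0.14). By limma voom with library weights, the log2 fold changes were 0.28 (adjusted p = 0.0335) for Hspa8 and 0.22 (adjusted p = 0.0417) for Hsp90ab1.

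Of the inducible genes on PLLA/ZnO, Hspa1b was at 12.7, 10.5 and 12.7 FPKM without ultrasound and at 12.6, 12.4 and 12.01 with it. Its groups overlapped almost wholly, with a log2 fold change of 0.04 (SE 0.22), and that of Hspa1a was 0.01 (SE 0.25). Dnajb1 was at 18.01, 18.2 and 17.4 FPKM without ultrasound and at 18.5, 18.2 and 23.5 with it. It was the 1 member of 10 that was higher without overlap, against 6.82% of genes, and 0 members were lower without overlap, against 4.62%. Its log2 fold change was 0.17 (SE 0.18). Those of Hsph1, Hspb1 and Hspe1 were 0.15 (SE 0.16), 0.25 (SE 0.44) and 0.01 (SE 0.19). Hsp90aa1 and Hspd1 had the negative estimates, -0.38 (SE 0.52) and -0.19 (SE 0.27), and without the 4 intermediate libraries these were -0.00 (SE 0.36) and 0.05 (SE 0.22).

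On the PLLA/ZnO@Col membrane, edgeR called 0 of the 10 members (0% of genes), with adjusted p-values of 0.525 or more. Here 4 members reached an unadjusted p under 0.05, against 8.18% of genes: Hspa1a and Hspa1b with higher estimates, and Hspd1 and Hsph1 with lower ones. DESeq2 called 0 members (0.0252% of genes). Limma voom with library weights called 6, against 28.2% of genes: Hspa1a, Hspa1b and Hspb1 as higher, and Hsp90aa1, Hspd1 and Hsph1 as lower. The estimate was above 0 for 6 of 10 members, against 47.1% of genes, and the median was 0.05, against -0.03 over all genes. The upper 95% bound was under 2-fold for 7 members and under 1.5-fold for the same count, the 3 others being Hspa1a, Hspa1b and Hspb1.

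Hspa1b was at 6.48, 8.30 and 5.59 FPKM without ultrasound and at 7.33, 12.5 and 14.4 with it. Hspa1a followed at 1.56, 2.00 and 1.41 FPKM, and at 1.57, 3.02 and 3.45. In both genes replicates 2 and 3 with ultrasound were above every library without, and replicate 1 was not. The log2 fold change was 0.75 (SE 0.22, unadjusted p = 0.00437, edgeR adjusted p = 0.525) for Hspa1b and 0.69 (SE 0.25, edgeR adjusted p = 0.525) for Hspa1a. Leaving out replicate 1 with ultrasound gave the 1 edgeR call of a member with ultrasound among the edgeR fits run. This was Hspa1b at a log2 fold change of 1.02 (adjusted p = 0.0458, against 0.318% of genes called in that fit). There, replicates 2 and 3 with ultrasound were intermediate in Y-linked share (40.7% and 45.9%), and replicates 1 and 3 without it were under 5%. Ultrasound and the intermediate share thus cannot be told apart in that fit. Leaving out the 3 libraries under 5% Y-linked gave 0.74 (SE 0.25) for Hspa1b. That fit kept 1 library without ultrasound and again only intermediate ones with it, so it cannot separate ultrasound from the share either. Leaving out the 4 intermediate libraries instead left 0.13 (SE 0.24) for Hspa1b and -0.06 (SE 0.26) for Hspa1a, with 1 library with ultrasound.

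Hspb1 was at 0.764, 1.56 and 0.632 FPKM without ultrasound and at 0.548, 2.85 and 2.17 with it. Replicate 1 with ultrasound was the lowest of all 18 libraries and its fellows were among the highest, so the groups overlapped. The log2 fold change was 0.89 (SE 0.45, edgeR adjusted p = 0.525), and it was -0.83 (SE 0.48) without the 4 intermediate libraries. Dnajb1, the HSP70 partner, was at 24.3, 14.8 and 25.0 FPKM without ultrasound and at 25.0, 22.0 and 21.1 with it. Its log2 fold change was 0.08 (SE 0.18), and 0.58 (SE 0.18) without the 3 libraries under 5% Y-linked, which held its 3 highest values in the series. The 1 library without ultrasound in that fit, replicate 2, had the lowest Dnajb1 of all 18. The libraries with ultrasound were both intermediate there.

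Hsp90aa1 was at 103, 160 and 97.6 FPKM without ultrasound on PLLA/ZnO@Col and at 88.8, 39.8 and 47.4 with it. Every library with ultrasound was below every library without, by a log2 fold change of -1.02 (SE 0.52, edgeR adjusted p = 0.525). Hspd1 was at 161, 234 and 156 FPKM without ultrasound and at 135, 98.3 and 125 with it. Its groups did not overlap either, and the log2 fold change was -0.61 (SE 0.27, edgeR adjusted p = 0.525). Without the 4 intermediate libraries, Hsp90aa1 was at -0.41 (SE 0.46), Hspd1 at -0.42 (SE 0.29) and Hsph1 at -0.17 (SE 0.22), and without the 3 under 5% Y-linked at -1.83 (SE 0.74), -1.02 (SE 0.38) and -0.56 (SE 0.20). The latter fit kept only replicate 2 without ultrasound and only intermediate libraries with it. Ultrasound, Y-linked set and tilt thus cannot be told apart in it. Hsp90aa1 and Hspd1 were the 2 of 10 members lower without overlap, against 5.74% of genes, and 0 were higher without overlap, against 5.28%. Hsph1 was at 22.4, 22.0 and 17.3 FPKM without ultrasound and at 18.02, 12.6 and 16.3 with it, overlapping in replicate 3 without and replicate 1 with ultrasound, at a log2 fold change of -0.39 (SE 0.16). Hspa8, Hsp90ab1 and Hspe1 had log2 fold changes of 0.02 (SE 0.18), 0.10 (SE 0.14) and -0.12 (SE 0.19). Hspd1 and Hspe1 overlap on opposite strands and the strand setting of the counting is not given in the sources used here, so reads from their shared stretch cannot be told apart.

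**Figure D2:**
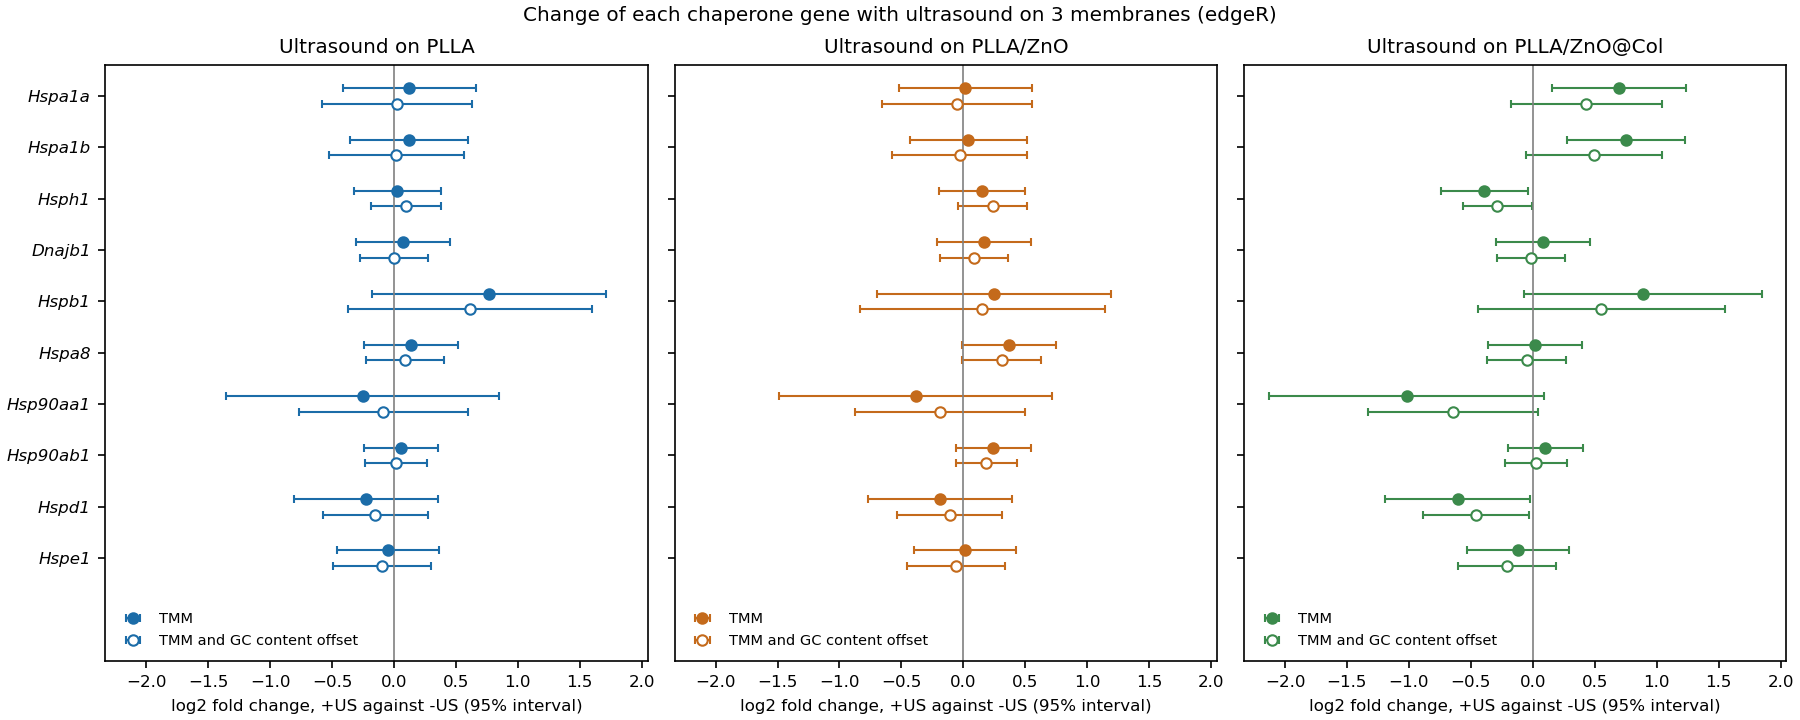
Log2 fold change of each chaperone gene with ultrasound (horizontal axis, +US against -US, bars 95% intervals) on the 3 membranes, from the edgeR fit with TMM scaling (filled) and with an added offset for GC content (open). On PLLA/ZnO@Col the estimates for Hspa1b, Hspb1 and Hsp90aa1 are 0.75, 0.89 and -1.02 without the offset and 0.49, 0.55 and -0.64 with it.

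Averaged over the 3 membranes, edgeR called 0 members (0% of genes), 3 members reached an unadjusted p under 0.05, against 12.1% of genes, DESeq2 called 0 (0.00839%) and limma voom with library weights 3 (Hspa1a, Hspa1b and Hspb1, against 11.2%). The average log2 fold change was 0.63 (SE 0.26) for Hspb1, 0.30 (SE 0.13) for Hspa1b and -0.34 (SE 0.16) for Hspd1, each with an edgeR adjusted p of 0.363. Without the 4 intermediate libraries these were -0.07 (SE 0.22), 0.14 (SE 0.12) and -0.13 (SE 0.14). Without the 3 libraries under 5% Y-linked edgeR called 1044 genes (8.75%), again with 0 members among them, though 8 members had an unadjusted p under 0.05, against 47.3% of genes. The PLLA/ZnO@Col part of that average rests on 1 library without ultrasound and on intermediate libraries alone with it. Of the members, Dnajb1 had the smallest adjusted p in that fit, at a log2 fold change of 0.28 (SE 0.08).

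The test of whether ultrasound acted differently on the membranes called 0 members in each of the 3 edgeR contrasts between membranes (0% of genes). At an unadjusted p under 0.05 there were 0 members for PLLA/ZnO against PLLA (0.385% of genes), 0 for PLLA/ZnO@Col against PLLA (1.22%) and 2 for PLLA/ZnO@Col against PLLA/ZnO (2.2%). The 2 were Hsph1, at a difference in log2 fold change of -0.54 (SE 0.23), and Hspa1b, at 0.71 (SE 0.32), both with an edgeR adjusted p of 0.999. Limma voom with library weights called 0 (0% of genes), 1 (6.43%) and 7 (30.8%) members in the same 3 contrasts.

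The membranes themselves were compared at equal treatment. Adding Col without ultrasound (PLLA/ZnO@Col -US against PLLA/ZnO -US) had lower values without overlap for Hspa1a, Hspa1b and Hspb1, which is 3 of 10 members against 6.31% of genes. EdgeR called 0 of the 10 (0% of genes), 4 had an unadjusted p under 0.05 (12.9%), DESeq2 called 1 (Hspa1b, 3.41%) and limma voom with library weights 7 (33.4%). Hspa1b had a log2 fold change of -0.79 (SE 0.22, edgeR adjusted p = 0.147), from 12.7, 10.5 and 12.7 FPKM to 6.48, 8.30 and 5.59. Of those 3 lower libraries, replicates 1 and 3 are under 5% Y-linked, and replicate 2, with a Y-linked share of 148%, had the 8.30. Leaving out replicate 2 gave 3 edgeR calls (8.7% of genes): Hspa1b at -0.93, Dnajb1 at 0.53 and Hspa8 at 0.59. That fit left only libraries under 5% Y-linked in PLLA/ZnO@Col -US, so Col and the Y-linked set cannot be told apart in it. Leaving out the 3 libraries under 5% Y-linked instead left replicate 2 alone. The members' median log2 fold change was then -0.14, against -0.02 over all genes, and -0.04 against 0.04 in the main fit. With ultrasound the Col contrast had 0 edgeR calls (0% of genes), 0 members at an unadjusted p under 0.05 (9.43%), 0 DESeq2 calls (0.394%), 3 calls by limma voom with library weights (51% of genes) and 1 member, Hspe1, lower without overlap (5.08%). Zinc oxide (PLLA/ZnO against PLLA) had 0 edgeR calls and 0 members at an unadjusted p under 0.05 both without ultrasound (0% and 1.19% of genes) and with it (0% and 1.27%). Limma voom with library weights called 1 member without ultrasound (Hsph1, 9.99% of genes) and 0 with it (0.067%), and DESeq2 0 in both (0.00839% and 0.0168%). With ultrasound, Hspe1 was higher (2.03% of genes) and Hsph1 lower (5.91%) on PLLA/ZnO without overlap in FPKM. In TMM-scaled CPM the groups overlapped for Hsph1.

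The members were also set beside the sets of libraries that differed in Y-linked reads. In the 3 libraries under 5% Y-linked, Hspa1a (1.41 to 1.57 FPKM), Hspa1b (5.59 to 7.33) and Hspb1 (0.548 to 0.764) were below all 15 others, and Dnajb1 (24.3 to 25.0) was above all 15. That is 3 of 10 members below, against 4.85% of genes, and 1 of 10 above, against 2.8%. These libraries comprise both treatments on the 1 membrane. In the 4 intermediate libraries, Hsp90aa1 (36.4 to 47.4 FPKM) and Hspd1 (98.3 to 125) were below all 14 others, 2 of 10 members against 9.7% of genes. As those 4 were all treated with ultrasound, their set and the treatment cannot be told apart within them. In the 11 remaining libraries Hsp90aa1 was at 77.3 to 182 FPKM and Hspd1 at 154 to 257.

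Over the 18 libraries, TMM-scaled log2 CPM of Hsp90aa1 followed the base composition tilt at Pearson's r = 0.943 (Spearman's rho = 0.938). The permutation p was 1e-05, the smallest that 100000 permutations can give, and 5e-05 after Benjamini-Hochberg adjustment over the 10 members. For Hspd1, r was 0.939 and rho 0.944, with the same p-values. The 18 libraries belong to 6 groups, and the 4 with the lowest tilt were all +US. They are therefore not 18 independent values. Without the 2 libraries farthest from the median tilt (replicate 3 of PLLA/ZnO +US and replicate 2 of PLLA/ZnO@Col +US) r was 0.904 for Hsp90aa1 and 0.917 for Hspd1, and within the 11 libraries over 60% Y-linked it was 0.896 and 0.802. Dnajb1 had r = -0.696 (rho = -0.835, adjusted permutation p = 0.0045 for r), and -0.759 within the 11. Hspa8 and Hsp90ab1 had r = -0.654 and -0.640 over the 18 but 0.03 and -0.05 within the 11, so their relation did not hold there. Hsph1 had r = 0.483 (adjusted permutation p = 0.0698). Hspa1a, Hspa1b, Hspb1 and Hspe1 lay between -0.193 and 0.0542 over the 18, while within the 11 libraries Hspa1a and Hspa1b had r = -0.689 and -0.743. The GC content of the transcript is 43.7% for Hsp90aa1, 46.8% for Hspd1 and 47.4% for Hsph1, 51.0 to 52.7% for Hsp90ab1, Hspa8, Hspe1 and Dnajb1, and 58.1 to 61.7% for Hspa1b, Hspa1a and Hspb1.

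**Figure D3:**
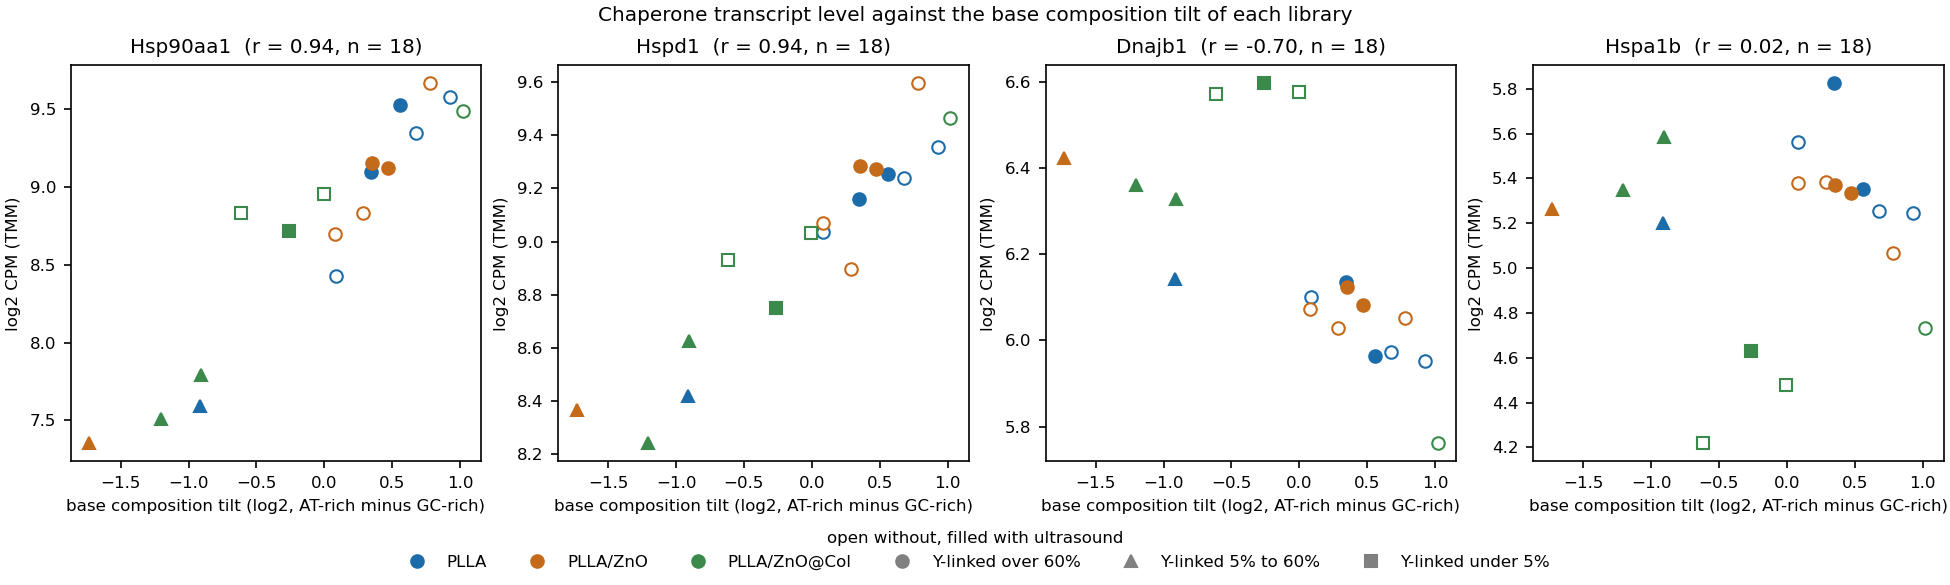
Level of 4 chaperone genes (vertical axis, TMM-scaled log2 CPM) against the base composition tilt of each of the 18 libraries (horizontal axis, log2), coloured by membrane, filled with ultrasound and shaped by Y-linked share. Hsp90aa1 and Hspd1 lie along a rising line (r = 0.943 and 0.939), Dnajb1 along a falling one, and Hspa1b has r = 0.025 over the 18, its 3 squares lying at the bottom, and -0.743 within the 11 libraries over 60% Y-linked.

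With an offset for GC content, chosen after seeing the data, edgeR again called 0 members in the ultrasound comparisons. On PLLA/ZnO@Col, 2 members then had an unadjusted p under 0.05 (4.87% of genes), Hspd1 at -0.46 (SE 0.20) and Hsph1 at -0.29 (SE 0.13), and Hsp90aa1 was at -0.64 (SE 0.32). The estimates for Hspa1b, Hspa1a and Hspb1 on that membrane were 0.49 (SE 0.26), 0.43 (SE 0.29) and 0.55 (SE 0.47). The upper bound of the fold change there was 2.06 for Hspa1b and Hspa1a. On PLLA and PLLA/ZnO, Hspa1b was at 0.02 (SE 0.26) and -0.03 (SE 0.26).

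The members did not move as 1 set across libraries. Of their 45 pairs, 19 had a correlation of log2 CPM above 0 over the 18 libraries, and the median was -0.06. The closest pairs were Hspa1a with Hspa1b (r = 0.980), Hsp90aa1 with Hspd1 (0.951), Hspa8 with Hsp90ab1 (0.886) and Dnajb1 with Hspa8 (0.863). Both values of a pair come from the same libraries, and what made the pairs alike was not tested. The lowest was Dnajb1 with Hspd1, at -0.597. The FPKM of Hspa1a was 0.209 to 0.252 times that of Hspa1b. Of the 100-base stretches of the Hspa1b transcript, 49.9% also occur in Hspa1a, so the split of reads between these copies is uncertain and their likeness is not independent. The table also lists Hspd1-ps3, a copy of Hspd1, and Hspa8 holds 3 small nucleolar RNA genes on its own strand. Among the genes whose level was most like the mean standardised level of the 10 members were Ywhae (r = 0.755), Mcm6 (0.747), Gm2962 (0.740), Abcf1 (0.725), Gm15163 (0.717), Ryk (0.710), Pdap1 (0.701), Ptma (0.692) and Cct6a (0.683) over the 18 libraries.

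The other genes of the heat shock response and of protein quality control gave 0 edgeR calls in every list and ultrasound comparison, and all log2 fold changes below had edgeR adjusted p-values over 0.5. The values are given in the order PLLA, PLLA/ZnO and PLLA/ZnO@Col. In that order, 50.5%, 46.3% and 47.1% of all genes had a higher estimate with ultrasound. The counts of higher estimates per list stand beside these shares and were not tested. Among HSP70s and their exchange factors, members included, 13, 12 and 9 of 17 had a higher estimate, with medians of 0.11, 0.04 and 0.02, against 0.00, -0.03 and -0.03 over all genes. Bag3, the HSP70 co-chaperone that heat shock factor 1 induces, was at 62.7 ± 7.72 FPKM (SD, n = 3) with ultrasound and 47.9 ± 4.03 without on PLLA/ZnO. Its log2 fold changes were 0.21, 0.39 and 0.23 (SE 0.17 each). Hspa4, an HSP110-family exchange factor, was at 34.9 ± 4.77 FPKM with and 48.6 ± 7.93 without ultrasound on PLLA/ZnO@Col (log2 fold change -0.47, SE 0.20). Hspa2, an HSP70 best known from the testis, had a log2 fold change of 0.86 (SE 0.30) there, and Bag5, another HSP70 co-chaperone, one of -0.30 (SE 0.14) on PLLA.

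The J-domain proteins, which hand substrates to HSP70, had 4, 3 and 4 of 14 higher estimates, with medians of -0.06, -0.13 and -0.21. With the GC offset the medians were -0.01, 0.00 and -0.09. Dnaja1, a cytosolic partner of HSP70 with a transcript of 41.2% GC, had log2 fold changes of -0.19, -0.39 and -0.75 (SE 0.35 each), which were 0.13, 0.03 and -0.16 with the offset. On PLLA/ZnO@Col the estimate was -1.14 (SE 0.49) for Dnajc2, a ribosome-associated J-domain protein. Dnaja2 and Dnajb14 were at -0.18 (SE 0.21) and -0.27 (SE 0.30) on PLLA, and Dnajc7 and Dnajc21 at -0.18 (SE 0.14) and -0.53 (SE 0.44) on PLLA/ZnO.

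HSP90s and their co-chaperones had 8, 8 and 5 of 14 higher estimates. Stip1, which links HSP70 to HSP90, had a log2 fold change of 0.31 (SE 0.14) on PLLA/ZnO, and the phosphatase gene Ppp5c 0.30 (SE 0.14). On PLLA/ZnO@Col, Ppid, a cyclophilin that binds HSP90, was at -0.99 (SE 0.36), and -0.45 with the GC offset. On PLLA, Unc45a, a myosin chaperone, was at 0.21 (SE 0.18). All 4 tested small heat shock proteins had higher estimates on each membrane, with medians of 0.31, 0.27 and 0.13 and, with the GC offset, of 0.21, 0.18 and 0.02. Cryab, the alpha-B crystallin gene, was at 48.4 ± 8.07 FPKM (SD, n = 3) with and 38.6 ± 2.01 without ultrasound on PLLA/ZnO, at a log2 fold change of 0.33 (SE 0.19). Hspb6, another small heat shock protein, had a log2 fold change of 0.39 (SE 0.19) on PLLA and of 0.06 (SE 0.19) on PLLA/ZnO@Col.

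The cytosolic chaperonin TRiC and prefoldin, which fold actin and tubulin, had 7, 7 and 4 of 14 higher estimates. Cct8 and Tcp1, both TRiC subunits, were at -0.67 (SE 0.24) and -0.30 (SE 0.13) on PLLA/ZnO@Col, Cct3 and Cct5 at 0.22 (SE 0.17) and 0.17 (SE 0.14) on PLLA/ZnO, and the prefoldin genes Pfdn6 and Vbp1 at 0.30 (SE 0.25) and -0.41 (SE 0.51) on PLLA. The mitochondrial chaperones and proteases, with Hspd1 and Hspe1, had 8, 11 and 6 of 16 higher. Hspa9, the mitochondrial HSP70, had log2 fold changes of -0.15, -0.14 and -0.33 (SE 0.15 each). Clpb, a disaggregase, was at 0.23 and 0.29 on PLLA and PLLA/ZnO (SE 0.17 each), Dnaja3 at 0.14 (SE 0.11) on PLLA and Hscb at 0.31 (SE 0.20) on PLLA/ZnO.

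The endoplasmic reticulum chaperones had 10, 5 and 6 of 18 higher estimates. Hspa5, the HSP70 of that compartment, was at 106 ± 18.2 FPKM (SD, n = 3) with and 132 ± 10.9 without ultrasound on PLLA/ZnO, at a log2 fold change of -0.31 (SE 0.14), which was -0.12 with the GC offset. Hsp90b1, its HSP90, was at -0.78 (SE 0.38) on PLLA/ZnO@Col, where Pdia3, a disulfide isomerase, was at -0.38 (SE 0.18). On PLLA, Creld2 and Dnajb11 were at 0.20 (SE 0.17) and 0.19 (SE 0.11). The 32 proteasome subunits had 21, 22 and 11 higher, with medians of 0.10, 0.12 and -0.07. Of these, Psmd12 was at -0.39 (SE 0.14) and Psmd6 at -0.40 (SE 0.19) on PLLA/ZnO@Col, Psmd5 at 0.17 (SE 0.12) and Psmd11 at 0.14 (SE 0.11) on PLLA/ZnO, and Psma3 at -0.27 (SE 0.21) and Psmb6 at 0.28 (SE 0.28) on PLLA.

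Hsf1, the heat shock factor itself, was at 6.50 ± 0.379 FPKM (SD, n = 3) with ultrasound and 5.84 ± 0.216 without on PLLA, 5.89 ± 0.337 and 5.08 ± 0.257 on PLLA/ZnO, and 7.26 ± 0.401 and 6.32 ± 1.117 on PLLA/ZnO@Col. Its log2 fold changes were 0.12, 0.21 and 0.19 (SE 0.13 each), and 0.00, 0.13 and 0.01 with the GC offset. Of its relatives, Hsf2 was at -0.59 (SE 0.35) on PLLA/ZnO@Col, or 0.08 with the offset, and Hsf4 at 0.44 and 0.50 on PLLA and PLLA/ZnO (SE 0.39 each). Ier5, a heat shock factor regulator, was at 0.44 (SE 0.19) on PLLA/ZnO@Col.

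The cold-inducible RNA-binding proteins, which are known to decline on warming, gave no shared direction. Cirbp had log2 fold changes of -0.03, -0.20 and 0.19 (SE 0.19 each). Rbm3 had -0.18, 0.01 and -0.15 (SE 0.15 each), and 0.17, 0.70 and 0.36 with the GC offset. Among other genes known to rise on heat or protein damage, 14, 6 and 8 of 17 had higher estimates. Hmox1, which oxidants and heavy metals induce, had log2 fold changes of 0.36, -0.13 and -0.18 (SE 0.28 each). Mt2, a metallothionein that zinc induces, had 0.13, -0.70 and -0.63 (SE 0.27 each). Gadd45a, a growth arrest gene, had -0.40, -0.68 and -0.59 (SE 0.26 each). Egr1, an immediate early gene, was at 0.74 (SE 0.27) on PLLA/ZnO@Col.

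**Figure D4:**
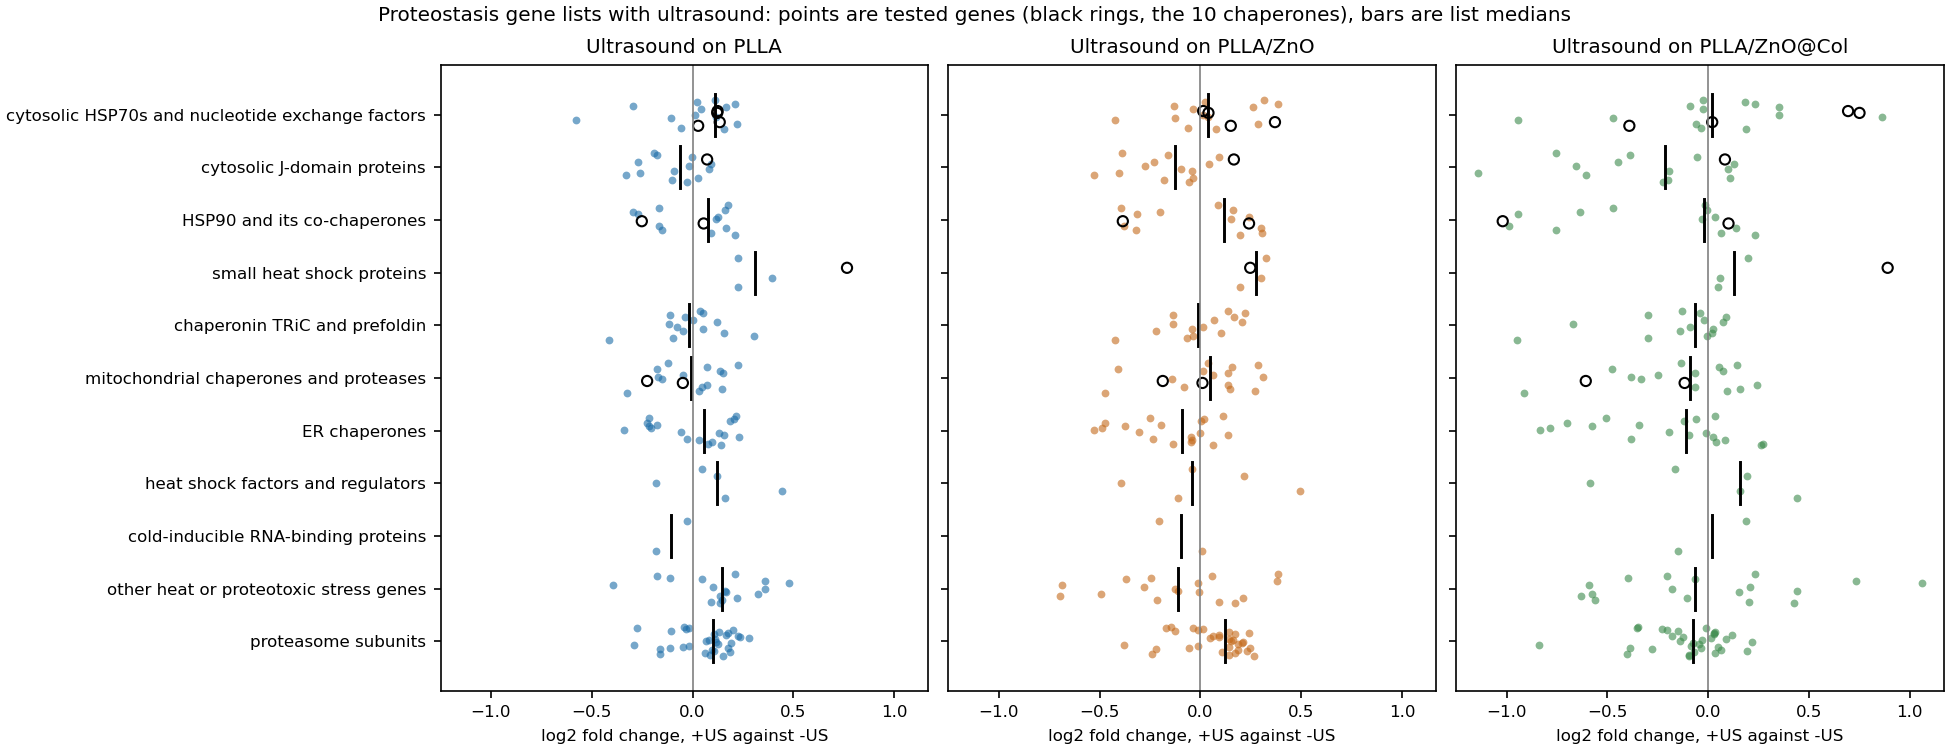
Log2 fold change with ultrasound (horizontal axis, +US against -US) of the tested genes of 11 lists of chaperones, regulators and proteasome subunits (rows) on the 3 membranes. Each point is a gene, black rings mark the 10 chaperones and bars the list medians, which lie between -0.21 and 0.31.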

How the data were processed

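RNA from 18 libraries was compared. Per the submitters' processing notes, reads were trimmed with cutadapt 1.9, checked with FastQC and referred to GRCm38; of the aligner, the counter and the strand setting the sources used here say nothing. The authors deposited gene counts (whole numbers, not normalised) and FPKM values per library. Counts were tested with edgeR 4.0.16 (R 4.3.3): genes at 1 FPKM or more in at least 3 libraries (11936 of 30452), TMM scaling, 1 quasi-likelihood fit over all 6 groups with 12 residual degrees of freedom, and Benjamini-Hochberg adjustment over all tested genes at 0.05. No covariate was used. DESeq2 1.42.0, limma 3.58.1 (voom with library weights, and log2 FPKM with pseudocounts of 1 and 0.1), other filters and scalings, and fits leaving out libraries were alternatives. Offsets for GC content (a lowess curve per library) and transcript length were added after seeing the data. Y-linked sets were cut at 5% and 60% of the median library. In a simulation of the ultrasound on PLLA comparison over 11936 genes, 4 of 50 genes with a 1.5-fold change were called, 22 of 50 at 2-fold, 36 at 3-fold and 42 at 4-fold, and 3 unchanged genes were called as well. The simulated libraries had no tilt in base composition and no Y-linked sets. No 2 replicate libraries agreed within sampling noise (lowest chi-square per degree of freedom 15.9). Transcript GC content and loci came from GENCODE M21, and promoter windows from RefSeq. The members and gene lists were chosen with earlier results of these data known. Named genes were the 10 members, up to 2 genes per list and ultrasound comparison with the smallest unadjusted p, 10 regulators and chaperones named whatever their values, and the 10 genes most like the members' mean. Kap, Thy1 and Saa3 were named after their values were seen. Of the genes this rule gives, 2 are not reported here.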

Additional observations from a re-analysis of the deposited data

How the results depend on the processing

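Over all 11 contrasts, 260 of 271 alternative settings gave 0 called members, as did the main edgeR fit. Limma voom with library weights gave 2 members for ultrasound on PLLA/ZnO, 6 on PLLA/ZnO@Col, 3 averaged, 1 for the difference PLLA/ZnO@Col minus PLLA, 7 for PLLA/ZnO@Col minus PLLA/ZnO, 1 for zinc oxide without ultrasound, 7 for Col without ultrasound and 3 for Col with ultrasound; the cause was not tested. DESeq2 gave 1 for Col without ultrasound. Leaving out 1 library at a time gave 0 to 1 members for ultrasound on PLLA/ZnO@Col (1 without replicate 1 of PLLA/ZnO@Col +US). It gave 0 to 3 for Col without ultrasound (3 without replicate 2 of PLLA/ZnO@Col -US), and 0 in the other contrasts. On PLLA/ZnO@Col, the fit that gave 1 kept only intermediate libraries with ultrasound. The fit that gave 3 kept only libraries under 5% Y-linked without it.

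Of 986 alternative values of the members' log2 fold changes with ultrasound, 77 changed sign, 4 of them where the main value was over 1 SE from 0. Without the 4 libraries at 5% to 60% Y-linked, Hspa1a on PLLA/ZnO@Col was -0.0585, Hspb1 on PLLA/ZnO@Col -0.832 and Hspb1 averaged -0.0745, and by voom with library weights Dnajb1 averaged was -0.0106. Over all genes, DESeq2 called 5 on PLLA/ZnO and 3 on PLLA/ZnO@Col where edgeR called 0, and voom with library weights called 568 and 3370. Without the 3 libraries under 5% Y-linked edgeR called 111 genes on PLLA/ZnO@Col and 1044 averaged, with 1 library left in PLLA/ZnO@Col -US.

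With the replicate number as a block, edgeR called 0 members in all 11 contrasts, also with the GC content offset. Same-numbered libraries correlated at -0.38 to 0.35 over 9 pairs, 3 of them over 0.1, so the numbers were not taken to pair the libraries. Counting error is largest for Hspb1, at 34 counts in its lowest library. Its 34, 214 and 133 counts in PLLA/ZnO@Col +US differ by more than that. The simulation recovered 22 of 50 genes changed 2-fold, in counts drawn without a tilt or Y-linked sets.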
